A study of Mus musculus with 2 samples.

Results

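The 8 genes described here, Ifit1, Ifit2, Ifit3, Isg15, Rsad2, Irf7, Oasl2 and Usp18, are type I interferon-stimulated genes. They were taken by gene symbol from a given list, 8 of the 32285 genes in the matrices, and each symbol matched 1 row. The study asked what restoring retinoic acid signaling does to aged muscle. Female C57Bl/6J mice aged 24 months received 3 rounds of intramuscular injections into the tibialis anterior, gastrocnemius and quadriceps of both hindlimbs. One group (ATRA+agonist) received all-trans retinoic acid (ATRA) with CD3254, an agonist of the retinoid X receptor RXRα, and BMS961, an agonist of the retinoic acid receptor RARγ. The other group (DMSO vehicle) received the solvent alone, and both groups were otherwise wild-type, uninjured and of the same age. Mononucleated cells of the quadriceps and gastrocnemius were sorted for viability, 2 mice were pooled per group, and each group was sequenced as 1 10x Genomics 3′ library. With 1 library per group no test between the groups was possible. All intervals below are exact 95% intervals that cover counting error only, and they leave out the spread between mice.

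Type I interferons bind the IFNAR1 and IFNAR2 receptor chains, and the kinases JAK1 and TYK2 then pass on a signal that acts at interferon-stimulated response elements (ISREs) in front of genes such as these. Interferon-gamma acts through a separate receptor and mainly at gamma-activated sites (GAS), and many genes answer to both. The vessel wall, macrophages and dendritic cells are known to carry such programs at rest, at a level set by tonic interferon.

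The upstream sequence of 4 of the genes is shown, since these 4 hold letters that match the ISRE. Genomic positions are from GENCODE M21 on GRCm38. Ifit1 (chr19:34640871-34650009), Ifit2 (chr19:34550694-34576419) and Ifit3 (chr19:34583531-34588731), which bind viral RNA or the machinery that translates it, are neighbours on the plus strand of chromosome 19. Isg15 (chr4:156199424-156200818, minus strand) encodes a ubiquitin-like modifier, and Usp18 (chr6:121245906-121270917, plus strand) encodes the protease that removes it and also restrains IFNAR signaling. Rsad2 (chr12:26442746-26456452, minus strand) encodes viperin, an antiviral enzyme. Irf7 (chr7:141262706-141266481, minus strand) encodes a transcription factor that amplifies interferon production, and Oasl2 (chr5:114896936-114912234, plus strand) encodes a member of the oligoadenylate synthetase-like family. The 60-base stretches below lie within the 250 bases before the RefSeq transcript start on GRCm38.p6, are written 5′ to 3′ along the gene, and have in capitals every match to the ISRE-type pattern GAAANNGAAA on either strand.
Ifit1 (chr19:34640775-34640834, plus strand): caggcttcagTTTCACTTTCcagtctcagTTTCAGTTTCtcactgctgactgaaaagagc
Ifit3 (chr19:34583363-34583422, plus strand): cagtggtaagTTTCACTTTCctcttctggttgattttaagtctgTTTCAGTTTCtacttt
Isg15 (chr4:156200847-156200906, minus strand): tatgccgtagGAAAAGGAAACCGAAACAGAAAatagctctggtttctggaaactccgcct
Rsad2 (chr12:26456523-26456582, minus strand): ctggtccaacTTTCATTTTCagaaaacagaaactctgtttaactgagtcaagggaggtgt

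Upstream windows were found for 7 of the 8 genes, and Usp18 had no entry. The pattern was present in 4 of those 7, against 2.98% of 32526 windows of the same length. In Isg15 the 3 matches overlap each other, beginning 78, 72 and 66 bases before the start. The 2 matches of Ifit1 begin 104 and 85 bases before the start, those of Ifit3 at 156 and 122, and the single match of Rsad2 at 120. Neither of the 2 Ifit2 windows held these letters, nor did those of Irf7 and Oasl2. The GAS-type pattern TTCNNNGAA, searched on both strands, was in 1 of the 7 (Ifit2) and in 7.04% of all windows. The ISRE-type pattern was also in 13 of the 29 other type I interferon-stimulated genes with a window and in 11 of 23 genes of the interferon-gamma response, and the GAS-type pattern in 4 and 8 of them, so the pattern was not particular to the 8 genes. A match describes the letters and does not show binding.

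**Figure D1:**
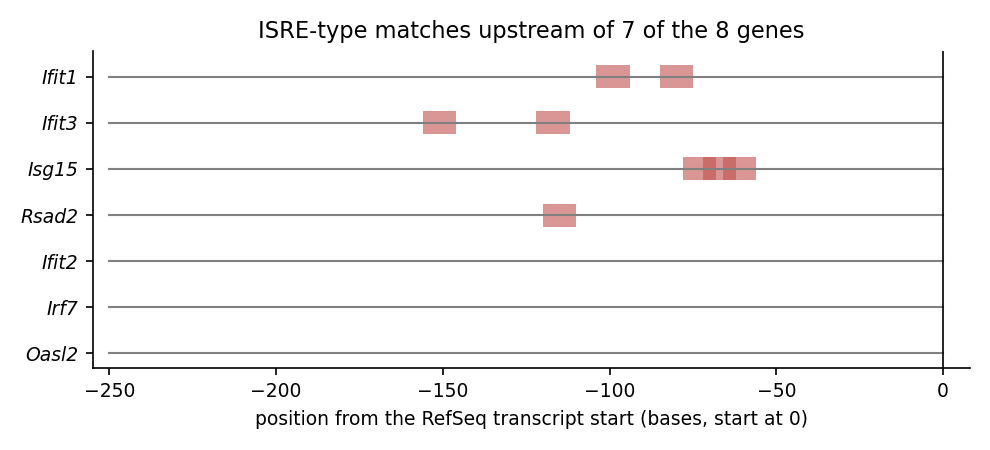
Positions of ISRE-type matches in the 250 bases upstream of the RefSeq transcript start (x axis, bases, start at 0) for 7 of the 8 genes (rows). Boxes are 10-base matches, darker where they overlap. Ifit1, Ifit3, Isg15 and Rsad2 hold 1 to 3 each, and the other genes none.

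After filtering, 6907 ATRA+agonist cells and 6953 vehicle cells remained, with a median of 4686 and 4856 UMIs (unique molecular identifiers, each standing for 1 captured transcript) per cell. The 8 genes gave 29022 and 37967 UMIs in these cells. Cells were clustered without the 8 genes and the other genes of the interferon lists used below, while genes outside these lists stayed in. From marker genes, 25 of 28 clusters were named, and 12 named classes had at least 50 cells in both libraries. Among kept cells, 8 barcodes occurred in both libraries, and over all barcodes 43 did. Leaving out every kept cell with such a barcode left the summed ratios within their intervals in the 11 classes where it was run. Levels are given as CPM, UMIs per 1000000 UMIs of the same class and library. The log2 ratio is ATRA+agonist over DMSO vehicle, so that a negative value is lower after the cocktail. A gene is called past 2-fold only where it had at least 20 UMIs over both libraries in that class.

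Endothelial-like cells had the highest summed level of the 8 genes of any class in both libraries. The endothelial-like class held 1931 and 2127 cells, ATRA+agonist first here and below, and all 9 of its markers, such as Pecam1 and Cdh5, were detected. Its summed level of the 8 genes was 2029 CPM (1995 to 2063) after the cocktail and 2810 CPM (2774 to 2847) after vehicle. This class made up 28.0% and 30.6% of cells but held 47.4% and 60.1% of the UMIs of the 8 genes. Among named classes it ranked first in both libraries, 4.52-fold over the next class (FAP-like) in the vehicle library and 1.96-fold over the next in the ATRA+agonist library. That next class was an S100a8-led cluster of 55 cells at 1037 CPM, 3 of which held 77.1% of its UMIs; the dendritic-like class came after it at 768 CPM. Unnamed cluster 3 stood at 1124 and 1258 CPM. It had all endothelial markers but a median of 823 UMIs per cell, too few to be named.

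Below the endothelium the order of the classes depended on the library. In the vehicle library the FAP-like class (fibroadipogenic progenitors, the resident connective tissue cells) had 622 CPM (609 to 636) and the neural (glial)-like class 584 CPM (550 to 619), and their intervals overlapped. Smooth muscle or pericyte-like cells (387 CPM), tenocyte-like cells (381 CPM) and monocyte or macrophage-like cells (373 CPM) could not be told apart by their intervals. MuSC-like cells, the muscle stem cells on which the study centred, had 225 CPM (210 to 240). B cell-like cells were lowest in both libraries, at 36.2 CPM (30.6 to 42.5) and 27.6 CPM (13.2 to 50.8). Free RNA can give UMIs in cells that do not express a gene, and the values in B cell-like cells are given as that background. After each cell was thinned to 1000 UMIs, 3.92% and 3.33% of B cell-like cells had a UMI of any of the 8 genes, at unthinned median depths of 5364 and 4562.5 UMIs.

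**Figure D2:**
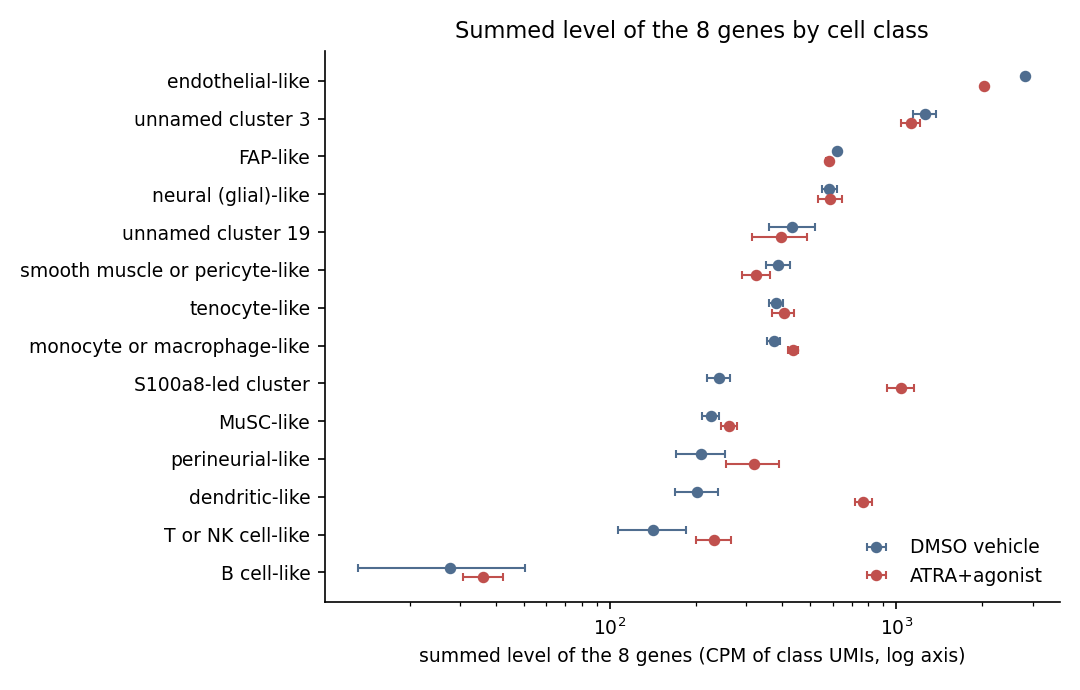
Summed level of the 8 genes (x axis, CPM of class UMIs, log axis) in each class or unnamed cluster with at least 50 cells in both libraries (rows), as points with exact Poisson 95% intervals. Endothelial-like cells are highest in both libraries, at 2029 and 2810 CPM, and B cell-like cells lowest.

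The genes were not equally endothelial. Of the Rsad2 UMIs, 74.0% and 86.6% came from endothelial-like cells, and its endothelial level in the vehicle library was 13.1-fold over the next class, monocyte or macrophage-like cells (54.8 CPM). In the ATRA+agonist library it was 1.91-fold over the S100a8-led cluster (229 CPM), and the dendritic-like class came after that at 64.0 CPM. Ifit2 stood 7.5-fold over the neural (glial)-like class (41.0 CPM) in the vehicle library. After the cocktail it was 1.18-fold over the S100a8-led cluster (107 CPM), ahead of the neural (glial)-like class at 58.0 CPM. Isg15 was 4.45-fold over the neural (glial)-like class in the vehicle library and 2.10-fold over the dendritic-like class in the other. Ifit1 differed less between the libraries in this respect, at 2.17-fold and 2.23-fold over the FAP-like class. Oasl2 was the least endothelial, with 18.0% and 25.4% of its UMIs from that class, and in the vehicle library its level differed by less than counting error between FAP-like (89.3 CPM) and endothelial-like cells (86.6 CPM). Irf7 was highest in dendritic-like cells after the cocktail, at 163 CPM against 68.2 CPM in endothelial-like cells. Over the 28 class and library values, Isg15 and Rsad2 had a Pearson correlation of 0.85 on the log2(CPM + 10) scale, Ifit2 and Rsad2 one of 0.87, and Ifit1 and Irf7 one of 0.04. These points share 2 libraries and their classes, so the correlations are a description.

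In endothelial-like cells 7 of the 8 genes were lower after the cocktail. The summed log2 ratio was -0.47 (-0.50 to -0.44). Ifit2 had 853 UMIs (126 CPM) after the cocktail and 2498 UMIs (308 CPM) after vehicle, a log2 ratio of -1.29 (-1.41 to -1.18), and it alone of the 8 was past 2-fold. Of all 13103 genes with at least 20 UMIs in this class, 3.21% were past 2-fold lower. Rsad2 had 2970 UMIs (438 CPM) and 5839 UMIs (719 CPM), a ratio of -0.72 (-0.78 to -0.65).

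Ifit3, Ifit1 and Isg15 were lower by less. Ifit3 had 787 UMIs (116 CPM) and 1379 UMIs (170 CPM), a log2 ratio of -0.55 (-0.68 to -0.42). Its near-identical neighbour Ifit3b shares sequence with it, so how reads were divided between them is uncertain. Ifit1 had 2141 UMIs (315 CPM) and 3529 UMIs (435 CPM), a ratio of -0.46 (-0.54 to -0.38). Isg15, the gene with the most UMIs of the 8, had 5587 UMIs (823 CPM) and 7694 UMIs (948 CPM), a ratio of -0.20 (-0.25 to -0.15).

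Oasl2 and Irf7 were lower by amounts near that of Isg15. Oasl2 had 473 and 703 UMIs (69.7 and 86.6 CPM), a log2 ratio of -0.31 (-0.48 to -0.14), and Irf7 had 463 and 654 UMIs (68.2 and 80.6 CPM), a ratio of -0.24 (-0.42 to -0.07). Usp18, the feedback inhibitor, was the 1 gene above zero, with 493 and 512 UMIs (72.6 and 63.1 CPM) and a ratio of 0.20 (0.02 to 0.38). The median over the 8 was -0.39, beside 0.08 over all genes tested in the class.

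The lower level was spread over many cells. After thinning to 1000 UMIs, 61.7% (59.4 to 63.9) of 1870 cells had at least 1 UMI of the 8 genes after the cocktail and 74.4% (72.4 to 76.2) of 2086 cells after vehicle; 61 and 41 shallower cells were left out. Before thinning these shares were 81.1% and 89.99%. At least 3 different genes of the 8 were found in 14.3% (12.7 to 15.9) and 26.5% (24.6 to 28.4) of thinned cells. At 10 or more UMIs the shares were closer, at 3.21% (2.46 to 4.11) and 4.17% (3.35 to 5.12). Without the 5% of cells with the most such UMIs in each library, the log2 ratio was -0.61.

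**Figure D3:**
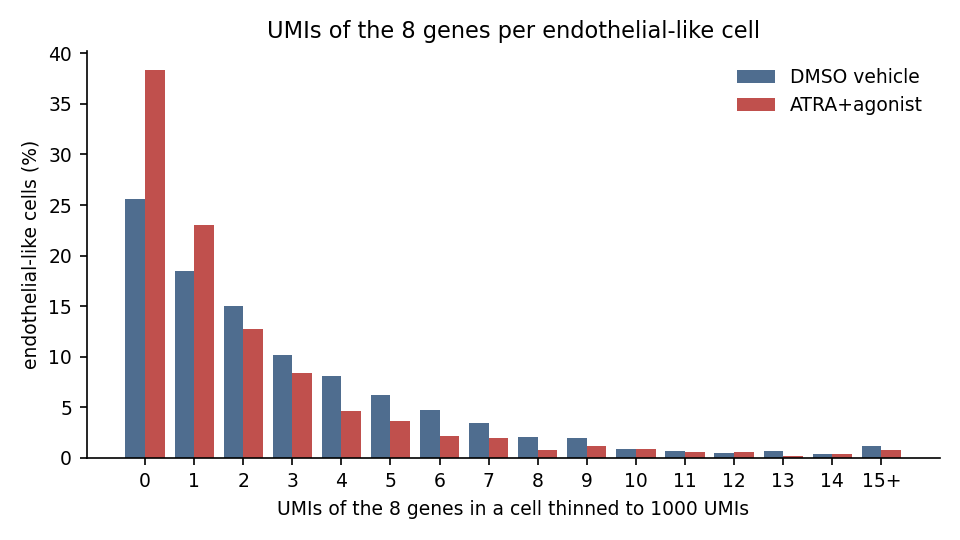
Share of endothelial-like cells (y axis, %) by the number of UMIs of the 8 genes per cell after thinning to 1000 UMIs (x axis, 15 and over together). Cells without a UMI made up 38.3% after the cocktail and 25.6% after vehicle.

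The 2 libraries also differed in which endothelial clusters their cells fell into. Cluster 0, with Flt1, Rsad2 and Gbp4 among its leading genes, held 37.0% and 57.5% of endothelial-like cells and had 2875 and 3347 CPM, a log2 ratio of -0.22 (-0.26 to -0.18). Cluster 2, led by the capillary genes Timp4, Aqp1 and Gpihbp1, held 49.3% and 19.7% and had 1272 and 1484 CPM, a ratio of -0.22 (-0.30 to -0.15). By gene, Isg15 (0.09) and Usp18 (0.68) were above 0 in cluster 0, and the other genes were below. In cluster 2, Ifit3 (0.29) and Usp18 (0.06) were above 0, Oasl2 was at -0.0008, and the other genes were below 0. With each cluster at its mean share of UMIs over both libraries, the class stood at 2156 and 2626 CPM, a ratio of -0.28 in place of -0.47. Rsad2 and Gbp4 lead cluster 0 although the genes of the interferon lists were left out of the clustering. Genes outside the lists were not left out. The shares of these clusters and the level of the genes therefore cannot be told apart. Cluster 12, led by the arterial genes Sema3g and Gja5, had 2318 and 3199 CPM, a ratio of -0.46 (-0.55 to -0.38). Cluster 11, whose cells had a median of 1605 UMIs, had 1166 and 2465 CPM, a ratio of -1.08 (-1.3 to -0.86). Cluster 24, led by Selp, Lrg1, Plvap and Ackr1, of which Selp and Ackr1 mark venous endothelium, had 624 and 1149 CPM in 19 and 73 cells, a ratio of -0.88 (-1.62 to -0.22) that rests on 19 UMIs after the cocktail.

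The log2 ratio lay below 0 beyond counting error in arterial and capillary cells, while venous cells depended on how they were chosen, and the difference between vessel types was not tested. Cells assigned by their own marker UMIs gave 1933 and 3057 CPM in 67 and 100 arterial cells, a log2 ratio of -0.66 (-0.79 to -0.53). In 1786 and 1860 capillary cells the levels were 2046 and 2938 CPM, a ratio of -0.52 (-0.55 to -0.49). In 36 and 108 venous cells they were 1317 and 1421 CPM, and the ratio of -0.11 (-0.37 to 0.14) did not differ from 0 beyond counting error, unlike that of cluster 24. Ifit2 was -1.43 in capillary and -0.69 in arterial cells, and Rsad2 -0.80 and -1.18.

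Several summed marker lists of other cells also differed between the libraries within the endothelial-like class. Whether these UMIs came from other cells or from the endothelial-like cells themselves was not tested. The summed level of all 8 FAP markers, none of which was at 0, was 1831 and 2591 CPM in endothelial-like cells, and hemoglobin genes stood at 506 and 1377 CPM. The 7 neutrophil markers summed to 1.77 and 8.62 CPM and the 9 monocyte or macrophage markers to 25.8 and 22.8 CPM. The 9 dendritic markers, which include the class II genes Cd74 and H2-Aa, summed to 168 and 1017 CPM, with 3 of them at 0 in both libraries. The part of these RNAs in the result was not tested; with hemoglobin, mitochondrial and interferon genes left out of the denominator the ratio was -0.49.

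Genes of the interferon-gamma response were lower in the same cells, many of them past 2-fold. Of 33 such genes measured, 32 had at least 20 UMIs in endothelial-like cells; 21 were past 2-fold lower and none was above 0, with a median log2 ratio of -1.32. Ubd, a ubiquitin-like modifier, had 15 and 1355 UMIs, a ratio of -6.24 (-7.08 to -5.51). The guanylate-binding protein gene Gbp2 had 1279 and 8849 UMIs, a ratio of -2.53 (-2.62 to -2.45), and Ido1, a tryptophan-degrading enzyme, had 96 and 895 UMIs, a ratio of -2.96 (-3.28 to -2.66). Gbp10 had 12 and 287 UMIs, a ratio of -4.32 (-5.29 to -3.49). The MHC class I genes with most UMIs were nearer to the 8 genes, with -0.87 for H2-K1, -0.62 for H2-D1 and -0.83 for B2m. Iigp1, the gene of the list with the most UMIs (22507 and 30135), had a ratio of -0.16 (-0.19 to -0.14). Per thinned endothelial-like cell, the UMIs of the 8 genes and of this list had a Pearson correlation of 0.42 and 0.54 on the log2(UMIs + 1) scale over 1870 and 2086 cells, which share their library and depth.

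The other type I interferon-stimulated genes were mostly within 2-fold. Of 36 measured, 32 had enough UMIs, 3 were past 2-fold lower (Ifit1bl1, Oas1g and Ifi213) and none past 2-fold higher, and the median log2 ratio was -0.18. Bst2, which tethers virions to the membrane, had a ratio of -0.64 (-0.69 to -0.58), Parp14 one of -0.67 (-0.74 to -0.59) and Ifi44 one of -0.84 (-1.04 to -0.65). Ifitm3 was at -0.31, Sp100 at -0.18 and Slfn5 at -0.16. Ifi213 was at -1.10 (-1.37 to -0.83), with 161 and 412 UMIs.

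The type I interferon receptor genes lay near 0 in endothelial-like cells. Ifnar1 was at 0.14 (-0.08 to 0.37) and Ifnar2 at 0.01 (-0.10 to 0.13). The 7 receptors and kinases, which include those of interferon-gamma, ranged from -0.32 to 0.63, and none was past 2-fold. Among transcription factors, Irf8 (343 and 915 UMIs, -1.16) was past 2-fold lower, whereas Stat2 was at -0.28, Irf9 at -0.11 and Irf1 at 0.13. Among 11 sensors and adaptors only Zbp1, a sensor of Z-form nucleic acid, was past 2-fold, with 53 and 660 UMIs and a ratio of -3.38 (-3.81 to -2.98). The RNA sensors Ifih1 and Ddx58 were at -0.37 and -0.23. None of 5 inhibitors was past 2-fold, with Socs1 at -0.61 and Socs3 at -0.01. Of the 4 genes that attach ISG15 to proteins, the ligase gene Herc6 was past 2-fold lower (-1.28), while Ube2l6 was at -0.67, Uba7 at -0.08 and Trim25 at 0.15.

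**Figure D4:**
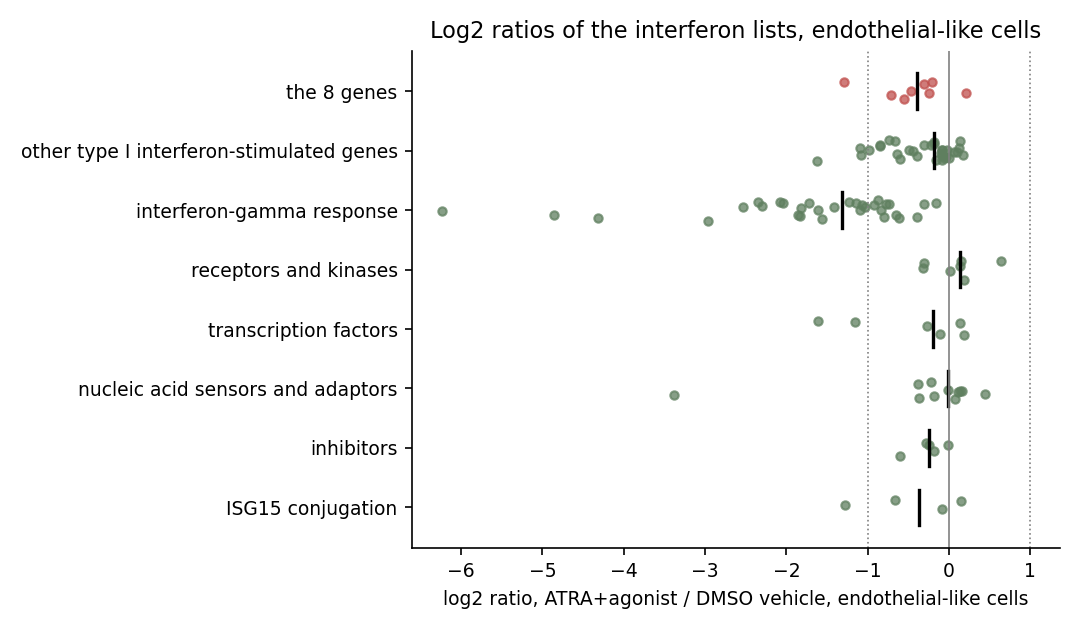
Log2 ratio (x axis, ATRA+agonist over DMSO vehicle) of each gene with at least 20 UMIs in endothelial-like cells, by list (rows). Points are genes, black bars list medians and dotted lines 2-fold. The 8 genes lie between -1.29 and 0.20, and the interferon-gamma response list reaches -6.24.

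The ligands themselves were close to undetected. Of 17 type I interferon genes measured, 3 had a UMI in each library over all barcodes, 13 and 7 UMIs in total. Ifnb1 had 5 UMIs after the cocktail and 1 after vehicle. Ifng had 273 and 215 UMIs over all barcodes, of which 151 and 85 lay in T or NK cell-like cells. Per UMI of that class, the log2 ratio of Ifng was -0.31.

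Most other classes differed by less than the endothelium, and their counting intervals left out the difference between mice. In FAP-like cells (1330 and 1667 cells) the sum was 582 and 622 CPM, a log2 ratio of -0.10 (-0.14 to -0.05), and none of the 8 genes was past 2-fold, where 4.82% of all genes were in either direction. Ifit1 had 1904 and 2782 UMIs there, a ratio of -0.50 (-0.59 to -0.42), as in the endothelium, while Ifit3 was at 0.26 and Irf7 at 0.42. The FAP clusters went in different directions, with -0.24 in cluster 1 (led by Cxcl14 and Smoc2) and 0.37 (0.27 to 0.47) in cluster 6 (led by Gdf10 and Fst).

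In MuSC-like cells (414 and 530 cells) the sum was 261 and 225 CPM, a log2 ratio of 0.21 (0.08 to 0.35). Rsad2 was past 2-fold higher, with 75 and 30 UMIs and a ratio of 1.57 (0.94 to 2.23), beside 4.82% of all genes past 2-fold in either direction; Oasl2 was at 0.55 and Isg15 at -0.05. The 5% of MuSC-like cells with the most UMIs of the 8 genes held 57.5% and 58.2% of them, and the thinned share of cells with any was 14.4% and 14.3%. Much of the level in these cells was thus carried by few cells in both libraries. Before thinning, 44.9% and 42.8% of MuSC-like cells had a UMI of the 8 genes. Such concentration was not particular to MuSC-like cells. The top 5% held 51.6% and 59.7% in monocyte or macrophage-like cells and 55.0% and 55.5% in tenocyte-like cells. In endothelial-like cells they held less, 31.2% and 24.4%.

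Monocyte or macrophage-like cells (522 and 406 cells) had 435 and 373 CPM, a log2 ratio of 0.22 (0.13 to 0.31), with no gene past 2-fold (4.17% of all genes). Usp18 (122 and 50 UMIs, 0.77), Irf7 (430 and 200 UMIs, 0.59) and Ifit3 (288 and 153 UMIs, 0.40) were higher beyond counting error, and Rsad2 was at -0.23 (-0.49 to 0.03). Smooth muscle or pericyte-like cells (227 and 296 cells) had a ratio of -0.25 (-0.47 to -0.04), with none of 7 genes past 2-fold (5.43% of all genes). Tenocyte-like cells (166 and 505 cells) had a ratio of 0.09 (-0.07 to 0.24), with Irf7 past 2-fold higher (1.10) and Rsad2 past 2-fold lower (-1.08), where 7.72% of all genes were past 2-fold. Neural (glial)-like cells (132 and 379 cells) had a ratio of 0.01 (-0.15 to 0.17). There Rsad2 (6 and 34 UMIs) was past 2-fold lower at -1.12, with an interval that included 0 (-2.67 to 0.14). Of all genes in that class, 8.45% were past 2-fold.

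The smallest classes carried too few UMIs for firm values. T or NK cell-like cells (104 and 56 cells) had 231 and 141 CPM, a log2 ratio of 0.71 (0.27 to 1.16), which was 0.19 (-0.36 to 0.77) without the 5% of cells with the most UMIs. Of the 4 genes with enough UMIs only Ifit3 (22 and 1 UMIs) was past 2-fold, where 10.5% of all genes were. In B cell-like cells (641 and 60 cells) 2 of the 8 genes had enough UMIs and Irf7 (32 and 1 UMIs) was past 2-fold, where 21.5% of all genes were. The make-up of this class differed, since its cluster 25, with Il5ra and Mzb1 among its leading genes, held 83 and 0 cells. In perineurial-like cells 2 of 4 genes were past 2-fold, but so were 38% of all genes, whose median was -0.43, so no difference was read from that class.

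Dendritic-like cells (74 and 50 cells) went the other way from the endothelium. The 8 genes summed to 768 CPM (716 to 823) and 201 CPM (169 to 238), a log2 ratio of 1.93 (1.67 to 2.21). Of the 8, 6 had at least 20 UMIs, and 5 were past 2-fold higher, where 6.02% of all genes were past 2-fold higher. Isg15 had 410 and 39 UMIs, a ratio of 2.76 (2.29 to 3.28), Irf7 had 171 and 43 UMIs, a ratio of 1.36 (0.87 to 1.88), and Usp18 had 53 and 6 UMIs, a ratio of 2.51 (1.3 to 4.02). Rsad2 had 67 UMIs and 1 UMI, a ratio of 5.43 (2.91 to 10.76), and Ifit2 had 28 and 3, a ratio of 2.59 (0.90 to 4.95). Oasl2 (46 and 43 UMIs, -0.53) did not share the direction. Ifit1, with 18 and 0 UMIs, and Ifit3, with 12 and 1, had too few to be counted.

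Few cells carried these dendritic UMIs. The 4 cells with most held 57.4% of them after the cocktail, and the 3 with most held 71.3% after vehicle; without them the level was 349 and 61.4 CPM, a log2 ratio of 2.51 (2.03 to 3.03) over 70 and 47 cells. After thinning, 26.0% (16.5 to 37.6) and 10.0% (3.33 to 21.8) of cells had a UMI of the 8 genes, and the intervals overlapped. The make-up of the class differed as well, with the plasmacytoid gene Siglech in 10 and 3 cells and Ccr7, of migratory dendritic cells, in 13 and 4. The ratio was 0.34 with cells of at least 500 genes and 0.63 with a doublet rate of 15%, so that its size depended on which cells were counted.

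Cluster 17 was named neutrophil-like by its pooled markers, led by S100a8 and S100a9, but the markers were unevenly spread over the cells of the ATRA+agonist library. All 7 neutrophil markers together stood at 16813 and 7609 CPM, and Csf3r was found in 19 of 55 and 91 of 191 cells. S100a8 was found in 2 of its 55 cells and S100a9 in 1, against 63 and 23 of 191 in the vehicle library, so that in the ATRA+agonist library the level of S100a9 came from 1 cell, and the 9 monocyte or macrophage markers summed to 11681 and 13595 CPM. It is therefore called the S100a8-led cluster. Its sum was 1037 and 240 CPM, a log2 ratio of 2.11 (1.90 to 2.32), and 7 of the 8 genes were past 2-fold higher, where 12.1% of all genes were past 2-fold higher. The 3 cells with most held 77.1% of the UMIs after the cocktail, and without the 5% of cells with most the levels were 269 and 163 CPM, a ratio of 0.72 (0.34 to 1.09). Since the marker content of the cells differed between the libraries, the values stand side by side and no change is read from them.

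**Figure D5:**
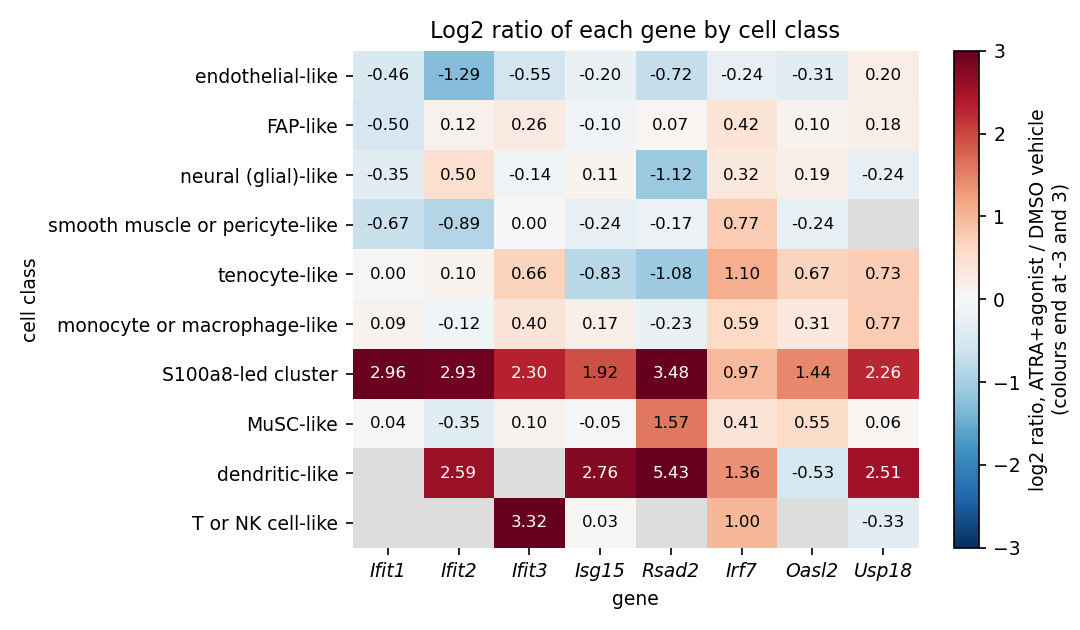
Log2 ratio (colour and number, ATRA+agonist over DMSO vehicle) of each gene (columns) in 10 classes (rows); grey marks genes with fewer than 20 UMIs. The endothelial-like row is blue but for Usp18, while the dendritic-like row and the S100a8-led cluster are red but for Oasl2 in dendritic-like cells. Rsad2 in dendritic-like and Ifit3 in T or NK cell-like cells rest on 1 vehicle UMI.

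Over whole libraries the 8 genes stood at 697 and 930 CPM, a log2 ratio of -0.42 (-0.44 to -0.39). With every class at its mean share over both libraries, the levels were 757 and 866 CPM and the ratio -0.19. B cell-like cells, the class with the lowest level, were 9.28% and 0.86% of cells.

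The genes whose levels over the 28 class and library values were most like the mean of the 8 were Xaf1 (Pearson correlation 0.90), Ifit3b (0.85), Cdkn1a (0.84), Rtp4 (0.83), Sec14l1 (0.82), Eng (0.81), P2ry2 (0.81), Phf11d (0.81), Cmpk2 (0.80) and Papss2 (0.80). Xaf1, Ifit3b, Rtp4, Phf11d and Cmpk2 are in the list of other type I interferon-stimulated genes, and Eng encodes the endothelial receptor endoglin. Of these 10 genes, 6 were also among the top 10 with an added constant of 1 CPM in place of 10.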

How the data were processed

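Per the file headers and the study's methods, the authors aligned reads to mm10 and counted UMIs with Cell Ranger 7.2.0, and the deposited matrices hold raw UMI counts of called cells (10444 and 17394 barcodes, 65197625 and 109343486 UMIs). Here cells with 300 to 5000 genes, under 20% mitochondrial and under 0.25% Hbb- UMIs were kept, and the 7.5% with the highest rebuilt doublet score were removed per library. Libraries were merged, normalized to 10000 UMIs per cell and clustered with 30 components, 20 neighbours and Louvain resolution 0.8 (Python 3.11.15, igraph 0.11.9). The 2000 variable genes left out the listed interferon genes and the mitochondrial, ribosomal and hemoglobin genes. Clusters were named from fixed markers; a rule leaving a cluster of mixed mast and T cell genes unnamed was added after the clusters were seen. UMIs were summed per class and library. Intervals are exact (Poisson, binomial, or conditional on the sum), at 95%; scripts were tested on simulated data. Thinning drew 1000 UMIs per cell. The members and lists were chosen with earlier results of these data known. Named were the 8 genes, from each pathway list the 5 with most UMIs in endothelial-like cells (at least 100), from the type I and interferon-gamma lists also the 5 with the largest ratios, not all of them printed, and the 10 genes most alike; Oas1g and the cell type genes were named after their values were seen.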

Additional observations from a re-analysis of the deposited data

Results flagged for a closer look

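The summed log2 ratio of the 8 genes was positive in dendritic-like cells (1.93) and negative in endothelial-like cells (-0.47). The directions are opposite, each rests on 1 library per group, and the difference between classes was not tested. The value of the S100a8-led cluster was 2.11, but 0.72 without the 5% of cells with most UMIs and 0.13 by mean log values, and no change is read from it.

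Barcodes removed by the filters also carried the 8 genes, above the level in B cell-like cells. Barcodes with under 300 genes had 173 and 236 CPM (ATRA+agonist first), a log2 ratio of -0.45. Barcodes removed for hemoglobin had 478 and 758 CPM, a ratio of -0.67.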

How the results depend on the processing

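Of the alternatives run, none reversed the direction of a ratio whose main interval excluded 0, and every alternative for the endothelial sum was negative. That sum moved outside its interval to -0.56 (no doublet removal), -0.57 (at most 10% mitochondrial UMIs), -0.53 (no maximum of genes), -0.52 (interferon lists kept for clustering), -0.54 (thinned cells), -0.55 (median-of-ratios scaling, which shifts all ratios by the median of all genes), -0.79 (mean of log-normalized values over cells) and, chosen after seeing the data, -0.61 (without the 5% of cells with most UMIs) and -0.28 (equal cluster shares). The whole-library ratio was -0.37 without doublet removal, -0.50 with a doublet rate of 15%, -0.39 without the hemoglobin filter and -0.37 with at least 500 genes.

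MuSC-like cells gave 0.44 with no maximum of genes and 0.05 by mean log values. Monocyte or macrophage-like cells gave 0.42 without doublet removal, 0.38 without the hemoglobin filter, 0.48 at resolution 0.4, 0.50 by own markers and 0.48 without the top 5% of cells. With no maximum of genes, smooth muscle or pericyte-like cells gave -0.48 and neural (glial)-like cells -0.17; the latter gave 0.20 by mean log values. B cell-like cells gave -0.60 without doublet removal and -1.41 without the hemoglobin filter. The interval came to include 0 in smooth muscle or pericyte-like cells with a doublet rate of 15% (-0.13, -0.36 to 0.10) and with at most 10% mitochondrial UMIs (-0.13, -0.34 to 0.08), in MuSC-like cells without the hemoglobin filter (0.10, -0.03 to 0.23), in T or NK cell-like cells with a doublet rate of 15% (0.29, -0.10 to 0.69), and, in all 5 of FAP-like, MuSC-like, monocyte or macrophage-like, smooth muscle or pericyte-like and T or NK cell-like cells, after thinning. T or NK cell-like cells gave 0.05 by mean log values and 0.19 without the top 5%.

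The S100a8-led cluster gave 2.32 with at most 10% mitochondrial UMIs, 0.13 by mean log values and 0.72 without the top 5%. Dendritic-like cells gave 0.63 (doublet rate of 15%), 1.20 (no hemoglobin filter), 0.34 (at least 500 genes), 1.6 (interferon lists kept), 1.46 (own markers), 1.64 (thinned) and 0.71 (mean log values). Without the top 5%, which left 47 vehicle cells, they gave 2.51 (2.03 to 3.03). Beyond what each alternative's own construction shows, the cause was not tested.

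In endothelial-like cells 2 genes were past 1.5-fold lower and 0 past 3-fold. With at least 100 UMIs, 2 genes were past 2-fold higher in dendritic-like cells and 3 in the S100a8-led cluster. The share of all genes past these other cuts was not computed, so no result is read from these counts. Of the 10 genes most like the 8, 6 were shared when 1 CPM was added. Alternatives that left a class under 50 cells in a library gave no value. Counting errors are small in endothelial-like and FAP-like cells and limit the dendritic, T or NK and B cell-like values; the spread between mice could not be measured. No paired analysis was possible because each group had 1 library.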

Other observations

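Barcodes removed as likely doublets, pooled over all classes, had 927 and 894 CPM of the 8 genes and a log2 ratio of 0.05 (-0.01 to 0.12). Their make-up by class was not determined, so this value is not set against that of a single class. The 37 lymphatic endothelial-like cells (25 and 12), too few to be compared, had 697 and 324 CPM. Myonuclei-like cells (228 and 18) had 29 UMIs and 1 UMI of the 8 genes.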
